A study of Mus musculus with 16 samples.

Results

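The clustered protocadherins are the genes of the alpha, beta and gamma protocadherin clusters, recognised by their symbols in the table of gene counts. The count table held 59 such gene records among 48709 genes. There were 12 alpha members and 2 alpha C-type members, 22 beta members, 12 gamma A members, 8 gamma B records and 3 gamma C-type members. RNA was measured in synaptosomes (SYN) of C57BL/6 mouse cerebral cortex. Synaptosomes are nerve endings that break off during homogenisation, close up and often keep a piece of the postsynaptic side. The groups were SYN at 3 weeks, SYN at 5 months, SYN at 19 months and total homogenate (TH) at 5 months, the unfractionated tissue kept before enrichment, with 4 biological replicates each and no treatment or mutation named in any group. Libraries were made from rRNA-depleted RNA with a strand-specific low-input kit and sequenced in pairs.

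Protocadherins of these clusters are cell-surface proteins with cadherin repeats that bind an identical partner on the facing membrane. In the mouse alpha and gamma clusters each first exon, called the variable exon, has its own promoter, encodes the whole extracellular part and is spliced to a few constant exons shared by the cluster. The beta genes have a single coding exon and no constant exons. A neuron uses a few of the alternate alpha, beta and gamma promoters, chosen through DNA methylation, CTCF and cohesin, while the C-type genes are used more uniformly. The resulting mixture lets a neurite recognise its own sister branches, and the proteins also act in neuron survival, dendrite branching and synapse formation.

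All members lay on the plus strand of chromosome 18 in build GRCm38.p6. The alpha cluster spanned positions 36930184 to 37187661, the beta cluster 37264938 to 37524479 and the gamma cluster 37661793 to 37841873. The 2 alpha C-type genes, Pcdhac1 and Pcdhac2, closed the alpha cluster, and the 3 gamma C-type genes, Pcdhgc3, Pcdhgc4 and Pcdhgc5, closed the gamma cluster. Reads in the shared constant exons were assigned to no gene in the deposited counts, so each value below stems from the exon bases that a member shares with no other gene on its strand. Of 626 genes of the annotation with no base of their own, 11 had any count, and the 4 readthrough genes that run over the clusters on the same strand (Gm42416, Gm37013, Gm37388 and Gm38182) had 0 counts in all 16 libraries. Own bases numbered 2588 to 8695 in the beta genes and 3380 to 4606 in the gamma C-type genes. Pcdhgc5, with 4606, is annotated in 3 exon blocks. The first runs unbroken from position 37819513 past the end of the variable exon at 37822134 into the constant exon that starts at 37825021. The own bases of Pcdhgc5 thus include part of the intron between, where reads of unspliced RNA from other gamma genes would count as Pcdhgc5. In 3 records own bases fell under 1000. These were Pcdha4, with 494 own bases because Gm42416 covers 2410 of its exon bases, and the 2 records of Pcdhgb8, with 78 and 0. In 13 members, 90 to 3338 of the own bases lie under exons annotated on the other strand, among them Pcdha6, Pcdha11, Pcdha12, Pcdhgb7 and Pcdhgc3. The strand setting of the counting is not given in the sources used here. Of 395 genes that lie wholly under exons of the other strand, 234 had counts. Pcdhga10, named after its values were seen, had 3302 counts though all its own bases lie under such exons. Reads there were thus assigned by strand, since reads shared between genes were left out. The symbol Pcdhga8 stood on 2 records of the count table. The one at the position of Pcdhgc4 in RefSeq and GENCODE is called Pcdhgc4 here. The name Pcdha11 stood on 2 records as well, and the one at the position of Pcdha10 in RefSeq is called Pcdha10 here.

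Libraries held 10640232 to 21719869 counts, of which 6110 to 14664 fell on the members. Genes of the mitochondrial genome took 36.1 to 57.8% of the counts in SYN and 20.2 to 25.1% in TH. Levels are therefore given as CPM, counts scaled to a common library total, after TMM scaling over all 16 libraries, which sets the bulk of genes equal between libraries. Of the libraries, 5 months SYN replicate 4 had the highest level of the nuclear RNA Malat1 among SYN libraries (4812 CPM, against 492 to 1681 CPM in the other SYN libraries), and 19 months SYN replicate 1 had the highest share of mitochondrial genes. Neuronal markers were present in every group. The 7 listed neuronal genes summed to 8704 to 9244 CPM at 3 weeks, 9221 to 11104 CPM at 5 months and 8648 to 9990 CPM at 19 months in SYN, and to 5158 to 5578 CPM in TH. Replicates of a group are separate biological samples by their labels. In the headers of the count table, SYN and TH libraries of 5 months with the same replicate number also share a further number. What that number stands for is not stated, so such libraries may be paired.

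The gamma cluster carried most of the signal in each group, and 3 C-type genes led all members by level. Per kilobase of own exon, Pcdhgc5 held 25.8 ± 6.10 CPM at 3 weeks, 18.1 ± 1.72 CPM at 5 months and 18.9 ± 2.17 CPM at 19 months in SYN, and 8.85 ± 0.69 CPM in TH (mean ± SD, n = 4 each, as for all values in this form). Pcdhgc5 is known from rodent neurons as a late-appearing isoform that binds a GABA-A receptor subunit. Its own bases include the intron stretch described above. Pcdhgc3, which promotes dendrite branching of mouse cortical neurons, held 21.1 ± 1.39, 15.01 ± 2.35 and 17.7 ± 1.06 CPM per kilobase at 3 weeks, 5 months and 19 months in SYN, and 9.11 ± 0.62 in TH. Pcdhac2, which is needed for the even spacing of serotonergic axons in mice, held 18.7 ± 3.57, 16.01 ± 1.81 and 17.5 ± 1.63 CPM per kilobase at 3 weeks, 5 months and 19 months in SYN, and 5.77 ± 0.43 in TH. These 3 genes took ranks 1 to 3 among the 56 members with at least 1000 own bases at each SYN age, and at each age their means lay within about an SD of the next in rank. In TH, Pcdhgc3 and Pcdhgc5 ranked 1 and 2 and were within their SDs of each other, while Pcdhac2 ranked 7. The median member held 1.95, 2.64 and 2.92 CPM per kilobase at 3 weeks, 5 months and 19 months in SYN, and 1.90 in TH.

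Levels among the alternate members covered a wide range. Per kilobase, the highest alternate members in SYN at 5 months were Pcdhga3 with 10.5 ± 1.92 CPM, Pcdhga11 with 9.15 CPM and Pcdhgb6 with 9.06 ± 0.98 CPM. Pcdhb20 led the beta genes with 5.84 CPM per kilobase and Pcdha12 the alpha genes with 3.81 ± 0.58 CPM per kilobase at the same age. The lowest member with enough own bases was Pcdhb1, with 57 counts in all 16 libraries together over 2588 own bases. Pcdha4 had 21 counts in all, the first record of Pcdhgb8 had 4 and its second record 0. Pcdhga11, Pcdhb20 and Pcdhb1 are named after their values were seen. The 4 records with the lowest counts, Pcdhb1 among them, did not pass the low-count filter of either fit and carry no test, which leaves 55 tested members.

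Summed over the members, the beta genes held 222 ± 26.6 CPM in SYN at 5 months and 135 ± 9.22 CPM in TH. The gamma C-type genes summed to 143 ± 13.4 CPM in SYN and 79.0 ± 5.59 CPM in TH, and the alpha C-type genes to 50.9 ± 6.03 CPM in SYN and 20.5 ± 1.33 CPM in TH. For these 3 sums every SYN library lay above every TH library. The alternate gamma A genes summed to 186 ± 11.5 CPM in SYN and 145 ± 5.17 CPM in TH, also without overlap, whereas the gamma B sum of 73.9 ± 7.30 CPM in SYN and 74.6 ± 4.25 CPM in TH and the alpha sum of 34.9 ± 4.89 CPM in SYN and 40.9 ± 1.51 CPM in TH overlapped. A sum depends on how libraries are set equal. With TMM the whole gamma cluster summed to 403 ± 29.8 CPM in SYN and 299 ± 6.37 CPM in TH. The whole alpha cluster summed to 85.7 ± 2.56 CPM in SYN and 61.3 ± 2.65 CPM in TH. With CPM taken over all counts the direction flipped for both. Gamma then had 357 ± 51.6 CPM in SYN and 475 ± 16.8 CPM in TH, and alpha 75.9 ± 9.39 CPM in SYN and 97.3 ± 5.50 CPM in TH. The beta means, 196.5 ± 34.2 CPM in SYN and 214 ± 14.8 CPM in TH, then differed by less than the SD of SYN. With CPM taken over the counts outside the mitochondrial genome, a scaling chosen after the data were seen, the sums were 632 ± 47.9 CPM in SYN and 608 ± 8.07 CPM in TH for gamma, 347 ± 38.2 CPM in SYN and 274 ± 17.5 CPM in TH for beta, and 134.5 ± 6.65 CPM in SYN and 125 ± 4.20 CPM in TH for alpha. The tests below use TMM.

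**Figure D1:**
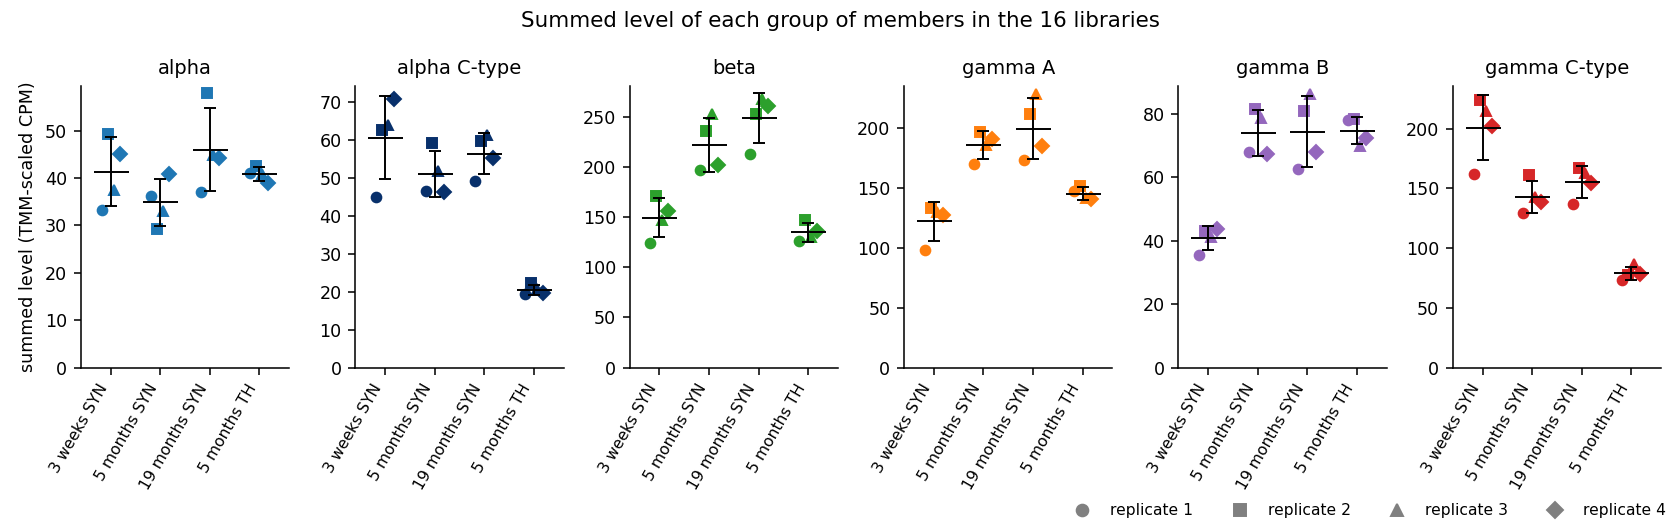
Summed TMM-scaled CPM of the members of each group (vertical axes, each from 0) in SYN at 3 weeks, 5 months and 19 months and in TH at 5 months; symbols are the 4 libraries of a group, black bars the mean and SD. The gamma C-type sum is highest at 3 weeks (201 CPM) and lowest in TH (79.0 CPM), while the beta sum is 149 CPM at 3 weeks and 248 CPM at 19 months in SYN.

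Setting SYN beside TH of the same age asks which transcripts the synaptic fraction holds at a higher level than the whole tissue. Of the 55 tested members, 26 were higher in SYN and 5 were lower (edgeR quasi-likelihood test, Benjamini-Hochberg adjusted p under 0.05 over 17374 genes), where 24.4% of all tested genes were higher, 25.6% lower and 50.1% either. The median log2 fold change was 0.43 over the tested members and -0.05 over all tested genes. Groups of libraries did not overlap for 22 members above TH and 7 below it, against 22.2% and 25.7% of all tested genes. In these bulk fractions fewer structures of a cell type and less RNA in each cannot be told apart. With upper-quartile scaling, which lowers the median of all genes by 0.14, 20 members were higher and 6 lower.

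Among the C-type genes Pcdhac2, Pcdhgc3 and Pcdhgc5 were higher in SYN. Pcdhac2 read 44.8, 55.6, 49.9 and 43.5 CPM in SYN replicates 1 to 4, against 16.5, 19.3, 17.5 and 16.6 CPM in TH. All 4 SYN libraries stood above all TH libraries, and the log2 fold change of 1.48 ± 0.11 (SE, edgeR adjusted p = 3.49e-08) was the highest of all tested members. Pcdhgc5 read 75.7, 89.6, 90.8 and 77.4 CPM in SYN, against 36.9, 41.5, 44.6 and 40.0 CPM in TH, again without overlap (edgeR log2 fold change 1.04 ± 0.09 SE, adjusted p = 2.92e-07). Pcdhgc3 read 46.8, 60.7, 42.4 and 53.1 CPM in SYN, against 29.2, 29.4, 33.7 and 30.8 CPM in TH, without overlap (edgeR log2 fold change 0.73 ± 0.11 SE, adjusted p = 6.42e-05). The other 2 C-type genes did not pass the test. Pcdhgc4, which supports the survival of cortical interneurons in mice, read 6.82, 11.1, 9.61 and 8.12 CPM in SYN, against 7.14, 6.62, 8.33 and 7.96 CPM in TH, with overlapping groups (edgeR log2 fold change 0.25 ± 0.18 SE, adjusted p = 0.257). Pcdhac1 read 1.57, 3.44, 1.96 and 2.69 CPM in SYN, against 2.89, 2.91, 3.18 and 2.92 CPM in TH (edgeR log2 fold change -0.29 ± 0.31 SE, adjusted p = 0.461).

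The beta genes were mostly higher in SYN. Of 21 tested, 15 were higher in SYN, 0 were lower and all 21 had a positive log2 fold change, with a median of 0.76. Called members ran from 0.48 for Pcdhb14 to 1.16 for Pcdhb5. Pcdhb5 read 8.39, 7.55, 8.23 and 6.15 CPM in SYN, against 4.47, 3.6, 2.46 and 3.15 CPM in TH, with every SYN library above every TH library (edgeR log2 fold change 1.16 ± 0.22 SE, adjusted p = 0.000521). Pcdhb2 read 6.74, 10.8, 13.9 and 7.16 CPM in SYN, against 4.64, 5.14, 5.26 and 4.41 CPM in TH, without overlap (edgeR log2 fold change 0.99 ± 0.23 SE, adjusted p = 0.00202). Pcdhb14, the beta gene with the most counts, read 22.3, 22.4, 26.2 and 27.8 CPM in SYN, against 17.1, 19.1, 16.4 and 18.6 CPM in TH (edgeR log2 fold change 0.48 ± 0.12 SE, adjusted p = 0.00282). The SYN values of Pcdhb2 spread widely, with replicates 2 and 3 high, whereas those of Pcdhb14 lay close together.

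The counts of the gamma A and B genes are given side by side, and their difference was not tested. Of 12 gamma A genes 6 were higher in SYN and 0 lower, with a median log2 fold change of 0.30. Of 6 tested gamma B genes 2 were higher and 2 lower, near the share of all tested genes, with a median of -0.16. Pcdhga2 read 16.5, 13.5, 18.6 and 17.3 CPM in SYN, against 7.80, 7.98, 7.63 and 10.3 CPM in TH, without overlap (edgeR log2 fold change 0.98 ± 0.15 SE, adjusted p = 8.62e-05). Pcdhga3 read 26.8, 33.9, 27.1 and 21.7 CPM in SYN, against 14.6, 19.7, 15.04 and 13.4 CPM in TH, without overlap (edgeR log2 fold change 0.81 ± 0.15 SE, adjusted p = 0.000407). Pcdhgb4 went the other way and had 3.45, 5.30, 4.48 and 3.64 CPM in SYN, against 8.89, 9.42, 9.90 and 11.4 CPM in TH. All SYN libraries of Pcdhgb4 lay below all TH libraries, with a log2 fold change of -1.22 ± 0.19 (SE, edgeR adjusted p = 7.67e-05). The other lower gamma B gene was Pcdhgb5 (edgeR log2 fold change -0.56 ± 0.19 SE, adjusted p = 0.0236), named after its values were seen. Pcdhgb6 read 22.2, 26.9, 21.3 and 22.6 CPM in SYN, against 17.8, 17.7, 16.3 and 16.4 CPM in TH (edgeR log2 fold change 0.46 ± 0.11 SE, adjusted p = 0.00342). Pcdhgb7 overlapped between groups, with 16.7 ± 3.59 CPM in SYN and 17.6 ± 1.44 CPM in TH (edgeR adjusted p = 0.757).

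None of the 11 tested alternate alpha genes was higher in SYN and 3 were lower, with a median log2 fold change of 0.05. The share lower, 27.3%, is near the 25.6% of all tested genes, and the share higher is below their 24.4%. Pcdha8 had 0.627, 0.299, 0.244 and 0.955 CPM in SYN, against 1.53, 2.55, 2.38 and 1.39 CPM in TH, without overlap (edgeR log2 fold change -1.83 ± 0.50 SE, adjusted p = 0.00679). These values rest on 31 counts in the 4 SYN libraries and 203 in the 4 TH libraries. Pcdha7 had 2.82, 1.72, 1.63 and 1.49 CPM in SYN, against 3.05, 4.89, 3.76 and 3.65 CPM in TH, without overlap (edgeR log2 fold change -1.0 ± 0.30 SE, adjusted p = 0.0128). Without TH replicate 2 this call was lost (adjusted p = 0.0566). Pcdha11 had 4.86, 4.48, 3.67 and 7.64 CPM in SYN, against 9.38, 11.5, 7.71 and 8.42 CPM in TH, with SYN replicate 4 just below the lowest TH library (edgeR log2 fold change -0.82 ± 0.23 SE, adjusted p = 0.00756). Pcdha12, the alpha gene with the highest mean CPM over the 16 libraries, read 9.44 ± 1.43 CPM in SYN and 8.06 ± 1.22 CPM in TH (edgeR log2 fold change 0.24 ± 0.17 SE, adjusted p = 0.263).

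Markers of cell types differed between SYN and TH as well. All 8 astrocyte markers were higher in SYN, with summed levels of 6574 to 7617 CPM in SYN and 2870 to 3437 CPM in TH. All 8 microglial markers were higher, with 168 to 192 CPM in SYN and 75.3 to 78.0 CPM in TH. Of 8 oligodendrocyte markers 6 were higher (2283 to 2830 CPM in SYN, 1506 to 1672 CPM in TH), as were 5 of 6 precursor markers (132 to 149 CPM in SYN, 74.7 to 85.9 CPM in TH), while of 7 interneuron markers 2 were higher and 2 lower (289 to 360.5 CPM in SYN, 275 to 362 CPM in TH). Of 9 endothelial and mural markers 8 were lower (42.4 to 74.0 CPM in SYN, 193 to 282 CPM in TH), and all 5 nuclear RNAs were lower (1327 to 6447 CPM in SYN, 19813 to 23872 CPM in TH). Of 7 neuronal markers 5 were higher and 1 was lower. Choroid plexus and ependymal markers spanned 90.01 to 630.6 CPM in SYN and 27.9 to 2605 CPM in TH, with 0 of 3 called, and no listed marker was at 0 in any group. The part of these markers in the protocadherin values was not tested. Leaving out the TH library with the highest choroid plexus level, replicate 4, left 23 members higher in SYN and 4 lower, and leaving out SYN replicate 4, the library highest in Malat1, left 25 higher and 5 lower.

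**Figure D2:**
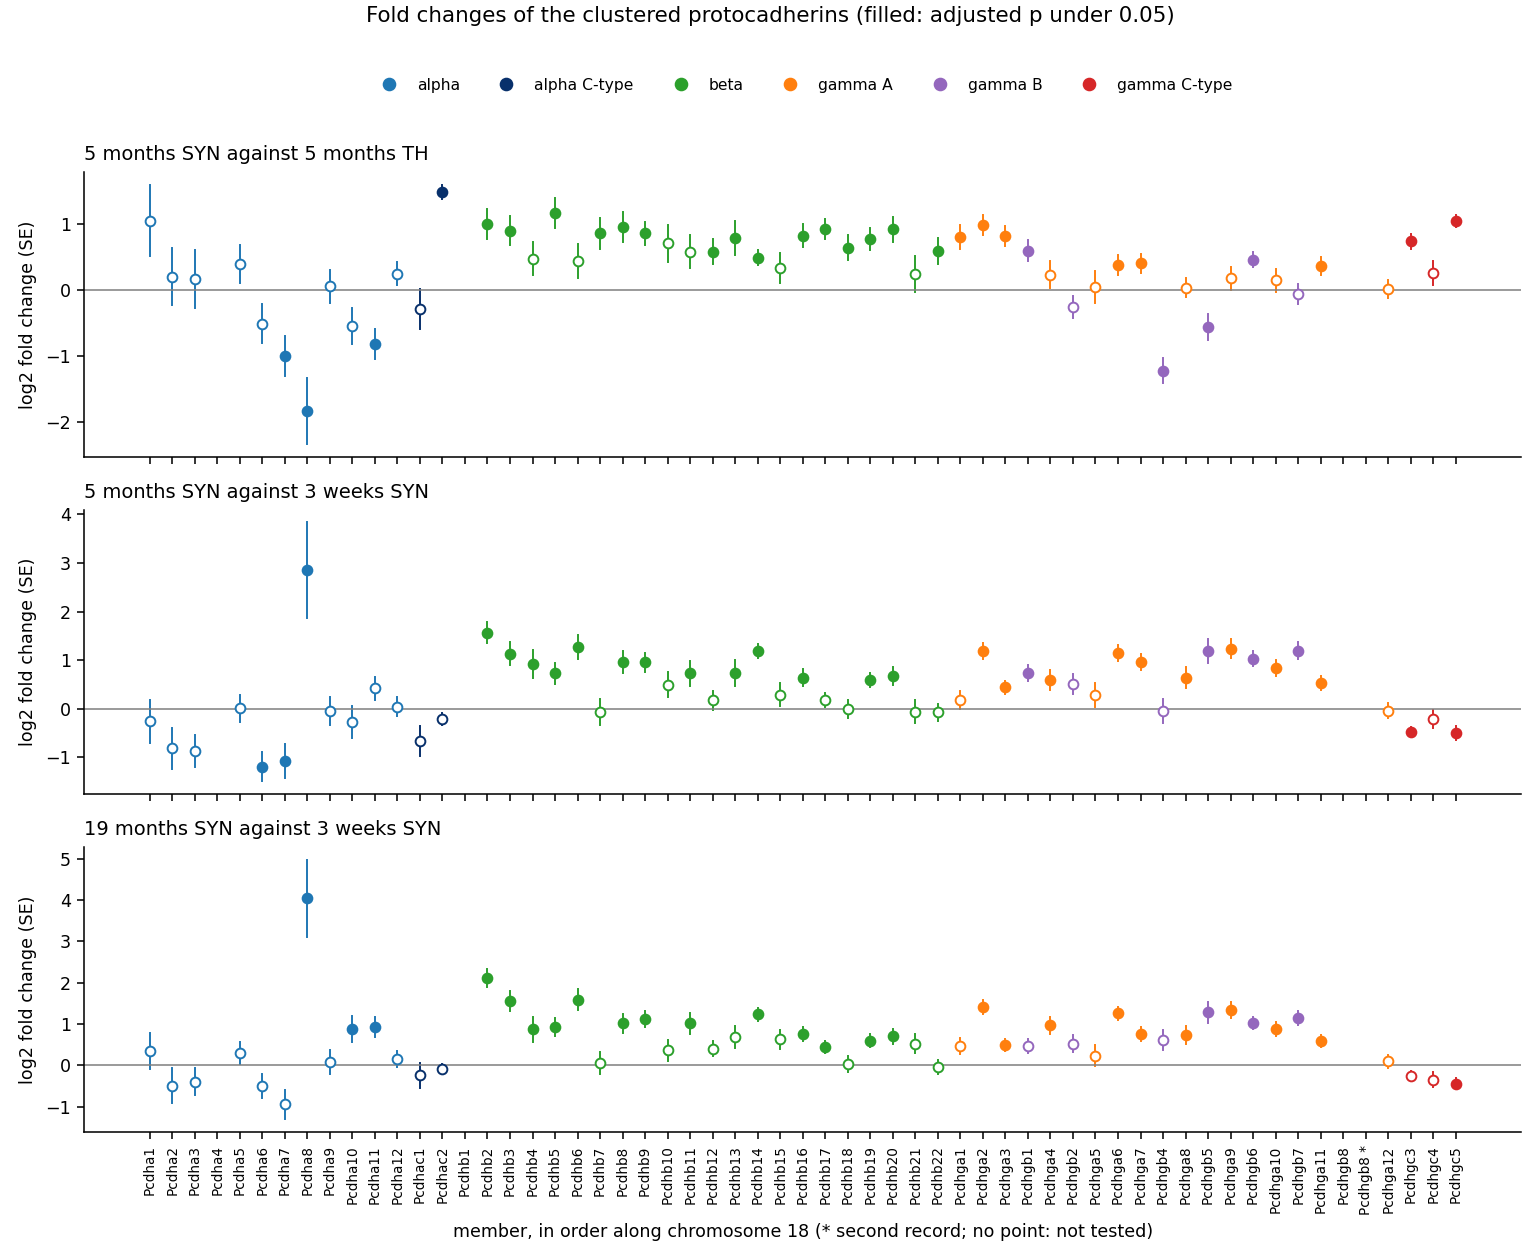
Log2 fold change of each member (points, with bars of 1 SE) in order along chromosome 18, for SYN against TH at 5 months (top), 5 months against 3 weeks in SYN (middle) and 19 months against 3 weeks in SYN (bottom). Filled points have an edgeR adjusted p under 0.05; the beta genes lie above 0 in the top panel, and the gamma C-type genes lie above 0 in the top panel and below 0 in the other panels.

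In SYN, the comparison of 5 months with 3 weeks asks how the synaptic transcriptome changes between the young and the adult cortex. Of the 55 tested members, 27 were higher at 5 months and 4 were lower (edgeR adjusted p under 0.05 over 15344 genes), where 13.3% of all tested genes were higher, 11.3% lower and 24.6% either. The median log2 fold change was 0.50 over the tested members and 0.00 over all tested genes. Libraries did not overlap for 19 members above the 3-week libraries and 4 below them, against 10.6% and 12.1% of all tested genes. The members called higher were 13 of 21 beta genes, 9 of 12 gamma A genes, 4 of 6 gamma B genes and 1 of 11 alternate alpha genes. Those called lower were 2 of 3 gamma C-type genes and 2 alpha genes.

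Pcdhb2 had the highest beta fold. It read 6.74, 10.8, 13.9 and 7.16 CPM at 5 months, against 2.93, 3.79, 3.17 and 3.16 CPM at 3 weeks, without overlap (edgeR log2 fold change 1.57 ± 0.22 SE, adjusted p = 6.19e-06). Pcdhb6 read 6.98, 4.33, 7.33 and 3.82 CPM at 5 months, against 2.44, 2.29, 2.27 and 2.39 CPM at 3 weeks, where the 3-week libraries lay close together and below all others (edgeR log2 fold change 1.27 ± 0.25 SE, adjusted p = 0.000398). Pcdhb14 read 22.3, 22.4, 26.2 and 27.8 CPM at 5 months, against 8.88, 11.3, 10.4 and 13.2 CPM at 3 weeks, without overlap (edgeR log2 fold change 1.19 ± 0.15 SE, adjusted p = 1.87e-06). Pcdhb3 read 10.9, 7.99, 5.54 and 7.88 CPM at 5 months, against 2.04, 3.98, 4.37 and 4.36 CPM at 3 weeks, without overlap (edgeR log2 fold change 1.13 ± 0.24 SE, adjusted p = 0.000888). Pcdhb5 overlapped between the ages, with 3-week replicate 2 at 6.66 CPM above the lowest 5-month library at 6.15 CPM, and passed the test (edgeR log2 fold change 0.73 ± 0.21 SE, adjusted p = 0.012). The summed beta level was 222 ± 26.6 CPM at 5 months and 149 ± 19.8 CPM at 3 weeks, without overlap between libraries.

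Along the chromosome, the beta fold changes of 5 months against 3 weeks were larger at the upstream end. The median fold change on the log2 scale was 1.03 over the first 6 tested beta genes and 0.09 over the last 6, with a Spearman correlation of -0.65 between order and fold change over 21 genes. These genes share libraries and neighbouring promoters, so no p-value is given. For SYN against TH the same beta correlation was -0.30, and that of the 18 tested gamma A and B genes was -0.53, with medians of 0.70 over the first 6 and 0.16 over the last 6. For 5 months against 3 weeks the gamma A and B correlation was 0.20. The 11 alternate alpha genes had 0.48 for 5 months against 3 weeks, with medians of -0.84 over the first 6 and 0.00 over the last 6, and -0.46 for SYN against TH.

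Most of the alternate gamma genes were higher at 5 months. Pcdhga9 read 12.2, 21.1, 12.2 and 19.0 CPM at 5 months, against 5.79, 7.58, 7.26 and 7.03 CPM at 3 weeks, without overlap (edgeR log2 fold change 1.24 ± 0.19 SE, adjusted p = 2.75e-05). Pcdhgb7 read 12.4, 19.3, 19.96 and 15.2 CPM at 5 months, against 5.79, 8.16, 8.33 and 7.10 CPM at 3 weeks, without overlap (edgeR log2 fold change 1.19 ± 0.18 SE, adjusted p = 1.44e-05). Pcdhga2 read 16.5, 13.5, 18.6 and 17.3 CPM at 5 months, against 5.54, 8.56, 6.80 and 8.44 CPM at 3 weeks, without overlap (edgeR log2 fold change 1.2 ± 0.17 SE, adjusted p = 6.91e-06). Pcdhgb6 held 23.2 ± 2.50 CPM at 5 months and 11.5 ± 1.45 CPM at 3 weeks (edgeR log2 fold change 1.03 ± 0.15 SE, adjusted p = 7.47e-06). Pcdhga3, the highest gamma A gene per kilobase at 3 weeks, had 27.4 ± 5.0 CPM at 5 months and 20.3 ± 3.13 CPM at 3 weeks (edgeR log2 fold change 0.44 ± 0.14 SE, adjusted p = 0.0226), and its call was lost without 3-week replicate 1 (adjusted p = 0.0608) or without 5-month replicate 2 (adjusted p = 0.116). Pcdhgb4 did not pass the test, with 4.22 ± 0.85 CPM at 5 months and 4.41 ± 1.55 CPM at 3 weeks (edgeR adjusted p = 0.91).

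Of the C-type genes, Pcdhgc3 and Pcdhgc5 were lower at 5 months. Pcdhgc3 had 46.8, 60.7, 42.4 and 53.1 CPM at 5 months, against 74.6, 70.4, 75.5 and 65.2 CPM at 3 weeks, so that every 5-month library lay below every 3-week library (edgeR log2 fold change -0.48 ± 0.10 SE, adjusted p = 0.00114). Pcdhgc5 had 75.7, 89.6, 90.8 and 77.4 CPM at 5 months, against 78.2, 142, 130.2 and 125 CPM at 3 weeks (edgeR log2 fold change -0.50 ± 0.14 SE, adjusted p = 0.00944). The groups of Pcdhgc5 overlapped through 3-week replicate 1 alone, which read 78.2 CPM. Pcdhgc4 held 8.90 ± 1.83 CPM at 5 months and 10.4 ± 1.43 CPM at 3 weeks and did not pass the test (edgeR adjusted p = 0.42). Pcdhac2 held 48.5 ± 5.49 CPM at 5 months and 56.7 ± 10.8 CPM at 3 weeks (edgeR log2 fold change -0.21 ± 0.12 SE, adjusted p = 0.206), and passed without 3-week replicate 1 (-0.33, adjusted p = 0.0156). Pcdhac1 held 2.41 ± 0.83 CPM at 5 months and 3.86 ± 0.91 CPM at 3 weeks (edgeR adjusted p = 0.121).

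Among the alternate alpha genes, Pcdha6 and Pcdha7 were lower and Pcdha8 was higher at 5 months. Pcdha6 had 1.80, 2.17, 1.55 and 2.21 CPM at 5 months, against 2.36, 4.96, 5.05 and 5.48 CPM at 3 weeks, with no overlap but with 3-week replicate 1 near the 5-month libraries (edgeR log2 fold change -1.19 ± 0.30 SE, adjusted p = 0.00476). Pcdha7 had 2.82, 1.72, 1.63 and 1.49 CPM at 5 months, against 3.67, 3.20, 4.25 and 5.20 CPM at 3 weeks, without overlap (edgeR log2 fold change -1.08 ± 0.35 SE, adjusted p = 0.0248). The call of Pcdha7 was lost on leaving out 3-week replicate 3 or 4 or 5-month replicate 2, 3 or 4, at adjusted p between 0.0549 and 0.0847. Pcdha8 had few reads at 3 weeks, with 2, 1, 1 and 0 counts in the 4 libraries, against 8, 4, 3 and 16 counts at 5 months. Its log2 fold change of 2.86 ± 0.98 (SE, edgeR adjusted p = 0.0331) rests on these few counts, and its call was lost without any one of 3-week replicates 2, 3 and 4 and 5-month replicates 1 and 4 (adjusted p between 0.0602 and 0.115).

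Between 5 months and 3 weeks markers of the oligodendrocyte lineage fell. Of 8 oligodendrocyte markers 7 were lower, with summed levels of 2283 to 2830 CPM at 5 months and 7234 to 10091 CPM at 3 weeks, and all 6 precursor markers were lower, with 132 to 149 CPM at 5 months and 337 to 389 CPM at 3 weeks. Of 8 astrocyte markers 2 were lower (6574 to 7617 CPM at 5 months, 6757 to 9887 CPM at 3 weeks). Of 5 nuclear RNAs 3 were higher, with 1327 to 6447 CPM at 5 months and 608 to 891 CPM at 3 weeks. Of 8 microglial markers 3 were higher (168 to 192 CPM at 5 months, 119 to 174 CPM at 3 weeks), as were 3 of 8 endothelial and mural markers (42.4 to 74.0 CPM at 5 months, 37.0 to 44.2 CPM at 3 weeks), 1 of 4 choroid plexus markers (90.01 to 630.6 CPM at 5 months, 71.4 to 103.6 CPM at 3 weeks) and 2 of 7 neuronal markers, with 1 neuronal marker lower. Of 7 interneuron markers 1 was higher and 1 lower (289 to 360.5 CPM at 5 months, 277 to 362 CPM at 3 weeks). The part of these markers in the protocadherin values was not tested. Without the library highest in Malat1 and the one highest in mitochondrial genes, 23 members were higher and 3 lower.

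**Figure D3:**
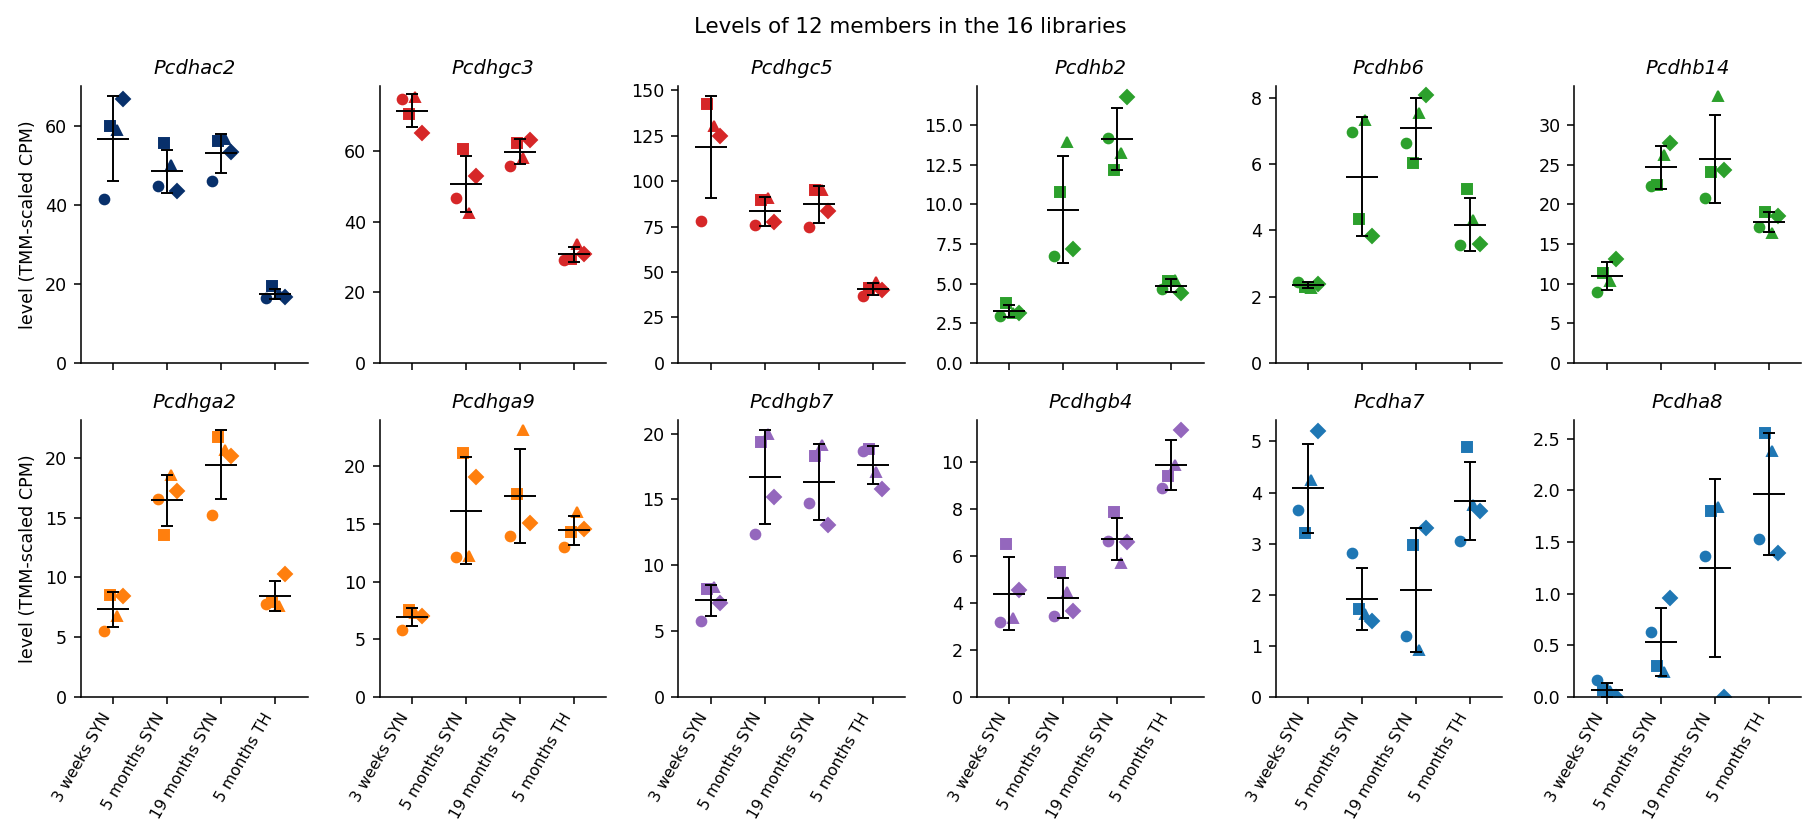
TMM-scaled CPM of 12 members (vertical axes, each from 0) in SYN at 3 weeks, 5 months and 19 months and in TH at 5 months; symbols are the 4 libraries of a group as in the plot of summed levels, black bars the mean and SD. Pcdhac2, Pcdhgc3 and Pcdhgc5 are lowest in TH, Pcdhb2, Pcdhb6 and Pcdhga9 are lowest at 3 weeks, and Pcdhgb4 and Pcdha8 are highest in TH.

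The makeup of the gamma cluster differed between the groups more than between replicates. A share within a cluster does not depend on how libraries are scaled to each other. The gamma C-type genes supplied 54.8, 55.9, 55.6 and 54.2% of the gamma counts in the 3 weeks SYN libraries. At 5 months the share was 35.2, 36.7, 35.0 and 34.9% and at 19 months 36.8, 36.3, 34.0 and 37.9%. The TH libraries at 5 months gave 24.5, 25.2, 29.1 and 27.0%. The means were 55.1 ± 0.78% at 3 weeks, 35.5 ± 0.84% at 5 months and 36.3 ± 1.63% at 19 months in SYN, and 26.4 ± 2.05% in TH. The libraries of 3 weeks stood above all other SYN libraries, and the SYN libraries of 5 months stood above those of TH, whereas the values of 5 and 19 months overlapped. The gamma A share was 33.6 ± 0.42, 46.2 ± 1.44 and 46.5 ± 1.07% at 3 weeks, 5 months and 19 months in SYN, and 48.6 ± 0.92% in TH. The gamma B share was 11.3 ± 0.66, 18.3 ± 1.00 and 17.3 ± 0.67% at the 3 ages in SYN, and 24.9 ± 1.14% in TH. These shares carry no test of their own, since they are made from the member values tested above. The gamma C-type share includes the intron stretch counted for Pcdhgc5.

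Within the gamma C-type genes, replicate 1 of 3 weeks SYN divided its counts differently from the other 3-week libraries. There Pcdhgc5 made up 26.4% and Pcdhgc3 25.2% of the gamma counts, against 33.5 to 35.6% and 17.5 to 19.5% in the other 3 libraries, while the C-type genes together made up 54.8% there and 54.2 to 55.9% in the others. In the alpha cluster, Pcdhac2 supplied 55.5 ± 2.71, 56.5 ± 5.59 and 52.1 ± 2.91% of the counts at 3 weeks, 5 months and 19 months in SYN, and 28.5 ± 1.08% in TH. The alpha share of Pcdhac2 thus overlapped between the ages and did not overlap between SYN and TH. Over all members, the C-type genes took 42.4 ± 1.03, 27.3 ± 1.15 and 27.2 ± 0.64% at the 3 ages in SYN, and 20.1 ± 1.31% in TH.

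**Figure D4:**
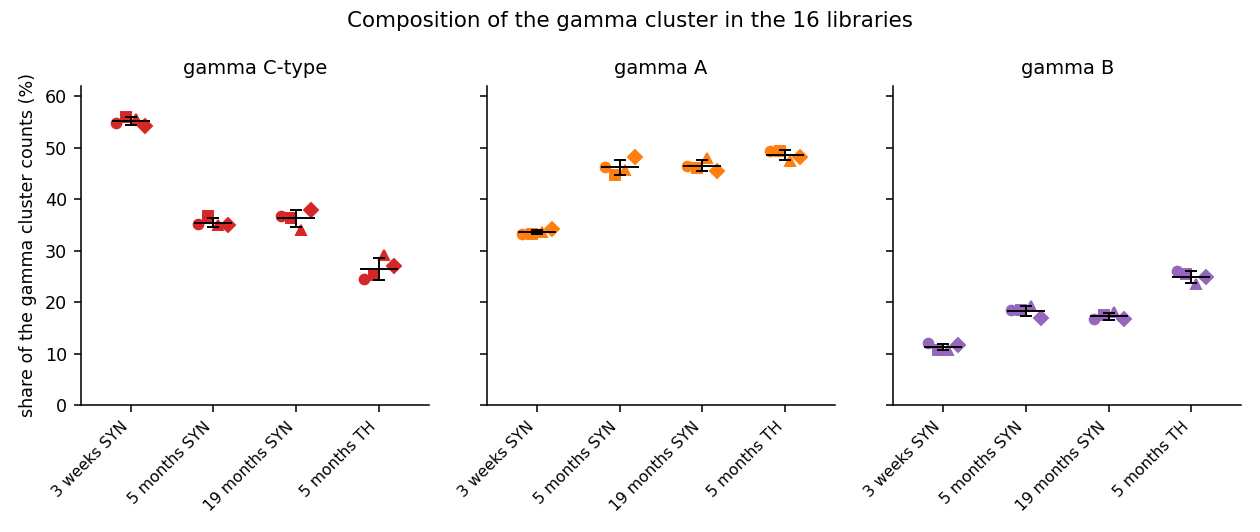
Share of the gamma cluster counts (percent, vertical axis from 0) taken by the gamma C-type, gamma A and gamma B genes in SYN at 3 weeks, 5 months and 19 months and in TH at 5 months; symbols are the 4 libraries of a group, black bars the mean and SD. The C-type share is 55.1% at 3 weeks, 35.5% at 5 months and 36.3% at 19 months in SYN, and 26.4% in TH.

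The authors' splice tables, made for SYN at the 3 ages, give a second view of the gamma cluster, from reads that join a first exon to the shared constant exons. These tables call the ages young, adult and old, taken here as 3 weeks, 5 months and 19 months. In the authors' deposited LeafCutter table for 5 months against 3 weeks, 1 intron cluster held 23 introns ending at the first constant gamma exon, which starts at position 37825021 of chromosome 18. Of these, 12 came from gamma A, 6 from gamma B and 4 from gamma C-type first exons, and 1 from no annotated exon end of a member. Its adjusted p in that table was 7.65e-05, where 6.61% of the tested intron clusters were under 0.05. The authors' deposited table for 19 months against 3 weeks gave 0.0185 for the same cluster, where 4.81% were under 0.05. For 19 months against 5 months the authors' deposited table gave 0.649, where 0.768% were under 0.05. A usage in these tables is 1 fitted value per age, so it has no SD.

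Introns from the 3 gamma C-type genes made up 45.5% of usage at 5 months and 59.2% at 3 weeks in the authors' deposited table, and in the table for 19 months against 3 weeks they made up 44.8% at 19 months and 59.2% at 3 weeks. All 4 introns from gamma C-type genes had lower usage at the later age in both tables. The gamma A introns made up 43.4% at 5 months and 30.4% at 3 weeks in the authors' deposited table, with 8 of 12 introns higher, and the gamma B introns 9.83% at 5 months and 8.93% at 3 weeks, with 3 of 6 higher. The junction table thus moved the C-type share by -13.7 percentage points. The gamma B share of counts moved more than that of introns, with 18.3 ± 1.00% at 5 months and 11.3 ± 0.66% at 3 weeks. Among single introns in the authors' deposited table, Pcdhga2 had 4.87% at 5 months and 1.34% at 3 weeks, Pcdhga6 7.12% at 5 months and 4.02% at 3 weeks, and Pcdhga8 4.63% at 5 months and 1.56% at 3 weeks. Pcdhgc3 had 10.5% at 5 months and 13.8% at 3 weeks. Pcdhgb5 had 0.888% at 5 months and 1.29% at 3 weeks in the authors' deposited table, while its counts were 7.10 ± 2.01 CPM at 5 months and 3.10 ± 1.14 CPM at 3 weeks. Pcdhga6, Pcdhga8 and Pcdhgb5 are named here after their values were seen. Across the 21 gamma members with a value in both, usage and CPM per kilobase had a Spearman correlation of 0.61 at 5 months and 0.61 at 3 weeks, and the log2 ratio of usage and the log2 fold change of counts one of 0.39. Members share libraries and a cluster sum in these correlations, which are given as a description.

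Pcdhgc5 joined the constant exon from 2 donor sites. The main donor ends the annotated variable exon at position 37822134, and an early donor at position 37819712, the exon end of another annotated Pcdhgc5 transcript, lies 200 bases from the start of the gene and leaves out the 2422 bases between the donors. The main donor had 33.4% of usage at 5 months and 38.5% at 3 weeks in the authors' deposited LeafCutter table. The early donor had 0.141% at 5 months and 3.61% at 3 weeks in that table, and 0.801% at 19 months in the authors' deposited table for 19 months against 3 weeks. The authors' deposited DIEGO table gave this early junction a q of 0.0464 for 5 months against 3 weeks, where 1.48% of junctions were under 0.05, and 0.0489 for 19 months against 3 weeks, where 0.69% were. The same table did not mark it significant in either comparison, and its sign convention is not given in the sources used here. For this junction at 5 months against 3 weeks the table also flags a replacement of zeros. No other of the 21 and 20 member junctions in these DIEGO tables had a q under 0.05, and for 19 months against 5 months 0 of 18 did.

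The alpha cluster had an intron cluster of 2 introns in the authors' deposited LeafCutter table for 5 months against 3 weeks. Pcdhac2 had 82.2% at 5 months and 84.0% at 3 weeks and Pcdha12 17.8% at 5 months and 15.96% at 3 weeks, with an adjusted p of 0.798 in the authors' deposited table. The beta genes have no such introns.

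**Figure D5:**
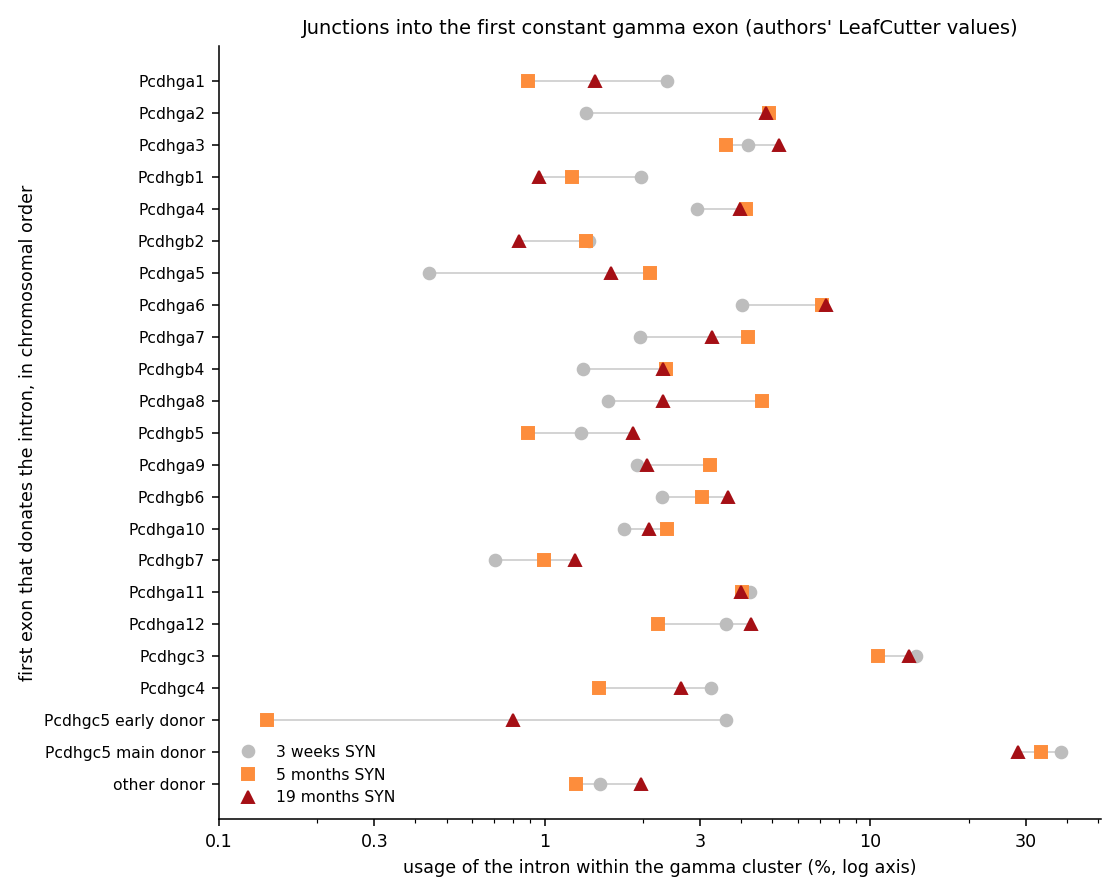
Usage of the 23 introns that end at the first constant gamma exon (percent of the intron cluster, log axis) by the first exon they start from, in chromosomal order, as 1 value per age from the authors' LeafCutter tables for SYN at 3 weeks, 5 months and 19 months. At 3 weeks the main donor of Pcdhgc5 is at 38.5% and its early donor at 3.61%; at 5 months the early donor is at 0.141%.

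Between 19 and 5 months no member passed the test in either direction (0 of 55, edgeR), where 0.13% of all tested genes were higher, 0.169% lower and 0.3% either. Libraries did not overlap for 2 members above the 5-month libraries and 0 below them, against 3.53% and 4.53% of all tested genes. At an unadjusted p under 0.05 there were 7 of 55 members and 2103 of 15344 genes, about the same share, and the DESeq2 Wald test called 0 members. The median log2 fold change was 0.12 with 47 of 55 positive over the members, and -0.0013 with 7638 of 15344 positive over all tested genes. Pcdhb2 read 14.2, 12.2, 13.3 and 16.8 CPM at 19 months, against 6.74, 10.8, 13.9 and 7.16 CPM at 5 months, with overlap through 5-month replicate 3 (edgeR log2 fold change 0.54 ± 0.20 SE, adjusted p = 0.214). Pcdhgb4 read 6.65, 7.89, 5.71 and 6.60 CPM at 19 months, against 3.45, 5.30, 4.48 and 3.64 CPM at 5 months, without overlap (edgeR log2 fold change 0.66 ± 0.24 SE, adjusted p = 0.205). Pcdha10, named after its values were seen, had the smallest adjusted p, with 4.92 ± 2.14 CPM at 19 months and 2.21 ± 0.36 CPM at 5 months (edgeR log2 fold change 1.16 ± 0.32 SE, adjusted p = 0.0947). It passed with no low-count filter (adjusted p = 0.0247) and with only the 8 libraries compared in the fit (adjusted p = 0.0436). With each library left out in turn Pcdha10 never passed (edgeR adjusted p between 0.108 and 0.351). Its log2 fold change was 0.81 without 19-month replicate 2, which read 8.03 CPM. Without both libraries that stand apart its adjusted p was 0.245. The libraries of both ages overlapped for all 5 C-type genes. Pcdhgc5 held 87.2 ± 10.0 CPM at 19 months and 83.4 ± 7.91 CPM at 5 months, Pcdhac2 53.1 ± 4.92 CPM at 19 months and 48.5 ± 5.49 CPM at 5 months, Pcdhgc4 8.18 ± 1.28 CPM at 19 months and 8.90 ± 1.83 CPM at 5 months, and Pcdhac1 3.27 ± 1.15 CPM at 19 months and 2.41 ± 0.83 CPM at 5 months (edgeR adjusted p between 0.586 and 0.904). Pcdhgc3, one of the 7 members with an unadjusted p under 0.05, held 59.9 ± 3.59 CPM at 19 months and 50.7 ± 7.95 CPM at 5 months (edgeR log2 fold change 0.23 ± 0.10 SE, adjusted p = 0.324). No gene of the marker lists passed the test between these ages. Summed microglial markers were at 197 to 306 CPM at 19 months and 168 to 192 CPM at 5 months, without overlap, and the part of these markers in the protocadherin values was not tested.

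Against 3 weeks, 19 months gave 28 members higher and 1 lower, where 10.0% of all tested genes were higher, 9.44% lower and 19.4% either. Libraries did not overlap for 24 members above the 3-week libraries and 1 below them, against 11.1% and 11.8% of all tested genes. This comparison and that of 5 months share the 3-week libraries, so their values are set side by side and do not support each other. The higher members were 13 of 21 beta, 9 of 12 gamma A, 3 of 6 gamma B and 3 of 11 alternate alpha genes, with 25 of the 28 also called higher at 5 months. The log2 fold change of Pcdhb2 was 2.11 ± 0.22 (edgeR adjusted p = 6.33e-08), that of Pcdhb6 1.59 ± 0.25 (adjusted p = 2.99e-05), that of Pcdhb3 1.56 ± 0.24 (adjusted p = 2.69e-05) and that of Pcdhga2 1.41 ± 0.17 (adjusted p = 5.4e-07). For each of these 4 genes every 19-month library lay above every 3-week library.

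The one lower member was Pcdhgc5, with 74.9, 95.3, 95.4 and 83.4 CPM at 19 months, against 78.2, 142, 130.2 and 125 CPM at 3 weeks (edgeR log2 fold change -0.44 ± 0.14 SE, adjusted p = 0.0236). Its call was lost without 3-week replicate 2, 3 or 4 or without 19-month replicate 1 or 4, at adjusted p between 0.0582 and 0.0877, and without both libraries that stand apart (adjusted p = 0.0732). Pcdhgc3 read 55.7, 62.4, 58.0 and 63.3 CPM at 19 months, all below the 3-week libraries of 65.2 to 75.5 CPM, and did not pass the test (edgeR log2 fold change -0.25 ± 0.10 SE, adjusted p = 0.0915). Pcdha11 was higher at 19 months, with 6.65, 9.35, 8.02 and 5.87 CPM, against 4.24, 4.38, 3.17 and 4.01 CPM at 3 weeks, without overlap (edgeR log2 fold change 0.93 ± 0.24 SE, adjusted p = 0.00565). Pcdha8 had 15, 26, 20 and 0 counts at 19 months, against 2, 1, 1 and 0 counts at 3 weeks (edgeR adjusted p = 0.00238). Replicate 4 of 19 months had no count, so the groups overlapped. Of the marker lists, 7 of 8 oligodendrocyte and 5 of 6 precursor markers were lower at 19 months than at 3 weeks, with sums of 2260.1 to 3168 CPM at 19 months for the first list and 134 to 167 CPM for the second, and the sums of the 5 nuclear RNAs were 1389 to 2203 CPM at 19 months, with no gene past the test. Microglial markers gave 4 of 8 higher at 19 months (197 to 306 CPM, against 119 to 174 CPM at 3 weeks), astrocyte markers 1 higher and 2 lower of 8, interneuron markers 2 of 7 higher, endothelial and mural markers 1 of 8 higher and neuronal markers 1 higher and 1 lower of 7. The part of these markers in the protocadherin values was not tested. Without the 2 libraries that stand apart, 29 members were higher and 0 lower.

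Genes that act on or with the clustered protocadherins were listed by role. Of 14 genes for promoter choice and chromatin architecture, 3 were higher and 4 lower in SYN than in TH, shares near the 24.4% and 25.6% of all tested genes. Rad21, a cohesin subunit, held 160.3 ± 13.4 CPM in SYN and 102 ± 6.29 CPM in TH (edgeR log2 fold change 0.67 ± 0.08 SE, adjusted p = 8.02e-06), and Setdb1, a histone methyltransferase that regulates the clusters in mouse neurons, held 16.2 ± 1.36 CPM in SYN and 28.4 ± 1.45 CPM in TH (edgeR log2 fold change -0.80 ± 0.11 SE, adjusted p = 2.15e-05). At 5 months against 3 weeks, 4 of 13 tested genes of this list were higher and 2 lower, against 13.3% and 11.3% of all tested genes. Of these the cohesin genes Stag1 and Smc1a had log2 fold changes of 0.74 ± 0.11 (edgeR adjusted p = 9.8e-06) and 0.51 ± 0.09 (adjusted p = 0.0002). At 19 months against 3 weeks 2 were higher and 2 lower, against 10.0% and 9.44% of all tested genes, and 0 were called at 19 against 5 months.

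Of 25 genes for processing, signalling and binding of the proteins, 11 were higher and 1 was lower in SYN than in TH, against 24.4% and 25.6% of all tested genes. Nlgn2, the neuroligin of inhibitory synapses, held 259.7 ± 44.1 CPM in SYN and 84.8 ± 9.83 CPM in TH (edgeR log2 fold change 1.62 ± 0.12 SE, adjusted p = 1.24e-07). Nlgn1, a postsynaptic adhesion protein that binds gamma protocadherins, held 102 ± 13.2 CPM in SYN and 69.2 ± 5.66 CPM in TH (edgeR log2 fold change 0.57 ± 0.10 SE, adjusted p = 0.000157). At 5 months against 3 weeks 4 were higher and 7 lower, against 13.3% and 11.3% of all tested genes. Marcks, a membrane-bound actin regulator downstream of gamma protocadherins in mouse cortex, had 131 ± 8.94 CPM at 5 months and 307 ± 22.0 CPM at 3 weeks (edgeR log2 fold change -1.22 ± 0.09 SE, adjusted p = 2.72e-10). Fyn, a Src-family kinase, had 91.7 ± 4.90 CPM at 5 months and 165 ± 27.0 CPM at 3 weeks (edgeR log2 fold change -0.83 ± 0.10 SE, adjusted p = 6.28e-07). At 19 months against 3 weeks 2 were higher and 6 lower, against the same 10.0% and 9.44%, and 0 were called at 19 against 5 months. Of 10 tested genes next to or between the clusters, 3 were higher and 2 lower in SYN than in TH, 2 higher and 2 lower at 5 months than at 3 weeks, 0 higher and 1 lower at 19 months than at 3 weeks and 0 called at 19 against 5 months. For SYN against TH these shares lie near the 24.4% and 25.6% of all tested genes. Rell2, one of these neighbours, held 53.2 ± 3.61 CPM in SYN and 23.0 ± 2.56 CPM in TH (edgeR log2 fold change 1.22 ± 0.10 SE, adjusted p = 1.94e-07).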

How the data were processed

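RNA of 16 libraries (4 each of SYN at 3 weeks, 5 months and 19 months and of TH at 5 months) was analysed from the authors' deposited gene counts, whole numbers per gene with no normalization. The submitters' processing notes name bcl2fastq 2.20.0.422 for demultiplexing, the trimmers cutadapt 1.18 and Trimmomatic 0.38, the counter featureCounts (Subread) and the build GRCm38.p6. Which aligner, strand setting or annotation release the authors used is not given in the sources used here. Of 395 genes that lie wholly under exons of the other strand, 234 had counts. Exon overlaps came from the exon positions deposited with the counts, and symbols were checked against GENCODE vM21 and RefSeq on GRCm38.p6.

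The authors' deposited LeafCutter tables give a p-value for each intron cluster and, for each intron, its fraction of the cluster at either age, printed here as percent. The authors' deposited DIEGO tables hold p- and q-values and an abundance change score per junction, whose sign and scale are not stated.

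Members and gene lists were chosen with earlier results of these data known. SYN and TH were compared on 8 libraries, and the ages on 12. Genes passing filterByExpr were TMM-scaled and tested with robust quasi-likelihood F tests (edgeR 4.0.16, limma 3.58.1, R 4.3.3), tested on simulated data beforehand, with Benjamini-Hochberg adjustment over all tested genes and a threshold of 0.05. SE is the absolute log2 fold change over the square root of F. In the simulated data, a true log2 change of 0.5 was called in 17% of changed genes for SYN against TH. For 5 months against 3 weeks it was called in 7%. At a true change of 1.0 these shares were 81% and 77%. False calls numbered 0 for SYN against TH and 5 for 5 months against 3 weeks. Far fewer genes were changed in the simulation than were called in the data, which makes its adjusted threshold stricter. These shares therefore do not give the power of the tests here, and smaller changes can still go uncalled.

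By rule, named members are the 5 C-type genes, up to 4 called members with the highest and up to 4 with the lowest fold change per comparison at a mean of at least 1 CPM, and the highest member of each group. Of each partner list, up to 4 genes by smallest p could be named, and a gene that this rule names is not reported here. Alternatives were DESeq2 1.42.0 (size factors and Wald test), upper-quartile scaling, no mitochondrial genes, other filters, a replicate block, other sets of libraries, each library left out, other scalings of sums and a stricter splice threshold. SYN and TH of 5 months share numbers in the count table's headers and may be the same preparations, which the labels do not state; libraries entered unpaired, and the replicate block was an alternative. No 2 libraries had identical counts. With 4 libraries per group and 10640232 to 21719869 counts each, low members are imprecise, and p-values cover the spread between these libraries. No sequence is printed for these genes.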

Additional observations from a re-analysis of the deposited data

Results flagged for a closer look

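In 7 of 108 groups of 4 libraries examined (named members, their sums and shares), 1 library lay far from the other 3 relative to the range of the group. Chance alone marks about 1 group in 20. Pcdhac1 read 3.18 CPM in TH replicate 3 at 5 months, where the other TH libraries read 2.89 to 2.92 CPM. Pcdhb5 read 7.01 CPM in SYN replicate 1 at 19 months, below 9.26 to 9.42 CPM in the others. Pcdha7 read 2.82 CPM in SYN replicate 1 at 5 months, above 1.49 to 1.72 CPM. Pcdha6 read 2.36 CPM in SYN replicate 1 at 3 weeks, below 4.96 to 5.48 CPM, and 1.82 CPM in SYN replicate 1 at 19 months, below 3.48 to 3.69 CPM. Pcdhb3 read 2.04 CPM in SYN replicate 1 at 3 weeks, below 3.98 to 4.37 CPM. Pcdhga2 read 10.3 CPM in TH replicate 4 at 5 months, above 7.63 to 7.98 CPM. In 5 of the 7 cases the library set apart was SYN replicate 1 of its age. These libraries had the highest share of mitochondrial genes of their age, with 56.3% at 3 weeks, 50.5% at 5 months and 57.8% at 19 months.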

How the results depend on the processing

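Over all alternatives, 56 pairs of a named member and a comparison gave 985 values, of which 962 kept direction and side of the threshold, 21 fell below it, 1 rose above it and 1 turned sign. The sign that turned was that of Pcdhac2 at 19 months against 3 weeks, at 0.0011 without 3-week replicate 4, with -0.20 without 3-week replicate 1 at the other end of its range and -0.09 with all libraries. With each library left out in turn, members called higher and lower numbered 21 to 26 and 4 to 5 for SYN against TH, 22 to 25 and 3 to 6 for 5 months against 3 weeks, 0 to 0 in both directions for 19 against 5 months, and 23 to 29 and 0 to 2 for 19 months against 3 weeks. All genes called numbered 7612 to 9390, 2694 to 3896, 0 to 124 and 2110 to 2966 in the same order. The count for 19 against 5 months, 46 genes in all, was 292 with no filter, 264 with the replicate block, 28 with all 16 libraries in the fit, 306 with the DESeq2 Wald test, 320 with only the 8 libraries compared and 5 without both libraries that stand apart. Members called higher there were 1 with no filter and 1 with only the 8 libraries. Members called lower at 19 months against 3 weeks were 2 with no filter, 2 with the replicate block, 2 with only the 8 libraries and 0 without both libraries that stand apart. The cause of these shifts was not tested.

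Upper-quartile scaling took the share of calls that were higher in SYN than in TH to 37.9% of all genes, against 48.8% with TMM. The DESeq2 Wald test gave 23 members higher and 5 lower for SYN against TH.

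The replicate block gave 26 members higher and 5 lower for SYN against TH, 27 and 5 for 5 months against 3 weeks, and 33 and 2 for 19 months against 3 weeks. Libraries of SYN and TH with the same number correlated at 0.229, 0.0431, 0.0699 and 0.226 after group means were removed. Those with different numbers ran from -0.184 to 0.139. Between ages in SYN, libraries with the same replicate number ran from -0.0366 to 0.326. The count table's headers give SYN and TH libraries of the same replicate a further shared number, so they may be paired. The ages share replicate numbers alone. The block changed the call of no member whose values are given for SYN against TH.

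With CPM over all counts, the alpha, beta and gamma sums were 79.6, 116 and 283 CPM at 3 weeks, 75.9, 196.5 and 357 CPM at 5 months and 97.1, 235 and 407 CPM at 19 months in SYN, and 97.3, 214 and 475 CPM in TH. With CPM over the counts outside the mitochondrial genome they were 162, 238 and 578 CPM at 3 weeks, 134.5, 347 and 632 CPM at 5 months and 165, 401 and 693 CPM at 19 months in SYN, and 125, 274 and 608 CPM in TH. Over the whole exon length, constant exons included, SYN levels per kilobase at 5 months were 10.9 CPM for Pcdhgc5 in place of 18.1, 9.2 for Pcdhgc3 in place of 15.01 and 8.23 for Pcdhac2 in place of 16.01, so that Pcdhgc3 stood above Pcdhac2. This length includes shared bases whose reads were assigned to no gene, so it lowers these levels unevenly. Own bases made up 51.4% of it in Pcdhac2 and 61.5% in Pcdhgc3. At a threshold of 0.01 the gamma intron cluster of the authors' deposited LeafCutter table was no longer under it at 19 months against 3 weeks (0.0185). Depth limits the low members: Pcdha8 has 4 counts over the 3-week libraries.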
